A study of Mus musculus with 51 samples.

Results

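The Hox genes of the mouse were described in bone: their RNA levels in femur, and the Polycomb mark H3K27me3, the heterochromatin mark H3K9me3 and 5-hydroxymethylcytosine (5hmC) over the 4 Hox clusters. Members were taken by gene name. The files hold 39 Hox symbols and 38 of them are described, 10 each in clusters A and B and 9 each in clusters C and D, among 23358 entries of the VitC femur tables and 25938 rows of the Tet femur table.

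RNA was measured in femurs flushed of marrow, with 3 libraries per group in both experiments. In the VitC experiment the mice were 20 weeks old, and carried either an intact Gulo gene (WT) or the Gulotm1Mae knockout, which leaves them unable to make vitamin C (VitC). Knockout mice received 3.3 g/L VitC in their water, for 20 weeks in the VitC+ group and for 15 weeks, followed by withdrawal, in the VitC+/- group. In the Tet experiment the mice were 11 weeks old, all carried Prrx1-Cre, which is active in limb mesenchyme, and had either no floxed allele (Ctrl) or floxed Tet1 (Tet1 cKO), Tet2 (Tet2 cKO) or both (Tet1/2 cKO), enzymes that convert 5-methylcytosine to 5hmC. All mice were of the C57BL/6 strain. Because Cre acts in a part of the cells of a femur only, RNA of all other cells dilutes a loss in these libraries. 5hmC was mapped by immunoprecipitation of DNA (hMeDIP-seq) in Ctrl, Tet1/2 cKO, VitC+ and VitC+/- femurs. It was also mapped in MC3T3-E1, a pre-osteoblast line from mouse calvaria, kept without VitC (VitC-) or with 50 µg/ml of it (VitC+), with 2 samples per group and mark. H3K27me3 and H3K9me3 were mapped by ChIP-seq in MC3T3-E1 only. The time in culture of the MC3T3-E1 5hmC samples is 28 days by the labels. For the histone samples it is 28 days by the labels and 7 days by the names of the peaks.

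Hox genes encode homeodomain transcription factors that give cells along the body axis and along the limb their position. In each cluster the genes lie in the order of their paralogue groups, with anterior genes (groups 1 to 4) at one end, central genes (5 to 8) in the middle and posterior genes (9 to 13) at the other end. Polycomb repressive complex 2 (PRC2) places H3K27me3 over whole stretches of silent Hox genes, complex 1 (PRC1) binds there, and trithorax proteins and H3K27 demethylases act against them. Cells of adult skeletal tissue are known to keep the Hox code of the place at which they arose.

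Hox promoters are rich in CpG, the substrate of DNA methylation and thus of 5hmC. For 22 of the 38 genes the RefSeq table (GRCm38.p6) holds a promoter, 24 in all. In the 250 bases upstream of the start they had a median of 12.5 CpG, with a range of 2 to 35, against a median of 6 over 32851 promoters of the table, with quartiles of 2 and 16. The following 5 promoters were chosen because they show the different patterns of marks and levels described for their genes, and capitals mark each CpG.
Hoxb4 (chr11:96318017-96318266, plus strand): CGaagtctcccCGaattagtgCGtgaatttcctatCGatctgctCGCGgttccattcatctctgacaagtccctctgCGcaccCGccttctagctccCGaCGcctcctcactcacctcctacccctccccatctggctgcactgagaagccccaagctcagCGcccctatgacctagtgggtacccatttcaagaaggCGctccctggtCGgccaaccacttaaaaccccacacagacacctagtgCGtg
Hoxa5 (chr6:52204588-52204837, minus strand): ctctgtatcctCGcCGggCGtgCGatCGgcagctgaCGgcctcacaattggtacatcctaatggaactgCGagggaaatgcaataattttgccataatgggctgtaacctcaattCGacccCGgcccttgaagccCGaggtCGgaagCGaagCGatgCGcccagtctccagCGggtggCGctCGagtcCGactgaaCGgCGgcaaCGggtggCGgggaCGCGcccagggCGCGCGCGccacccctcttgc
Hoxa10 (chr6:52240855-52241104, minus strand): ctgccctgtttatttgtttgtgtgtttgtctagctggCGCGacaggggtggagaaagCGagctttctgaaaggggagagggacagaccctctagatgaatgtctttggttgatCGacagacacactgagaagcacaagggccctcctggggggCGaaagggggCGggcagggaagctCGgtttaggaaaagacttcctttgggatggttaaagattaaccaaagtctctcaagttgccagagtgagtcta
Hoxb8 (chr11:96281655-96281904, plus strand): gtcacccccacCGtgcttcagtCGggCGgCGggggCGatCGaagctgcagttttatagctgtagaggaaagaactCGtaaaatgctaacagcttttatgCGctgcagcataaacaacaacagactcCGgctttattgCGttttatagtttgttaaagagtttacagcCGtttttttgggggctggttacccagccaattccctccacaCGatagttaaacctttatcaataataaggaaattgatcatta
Hoxd13 (chr2:74667975-74668224, plus strand): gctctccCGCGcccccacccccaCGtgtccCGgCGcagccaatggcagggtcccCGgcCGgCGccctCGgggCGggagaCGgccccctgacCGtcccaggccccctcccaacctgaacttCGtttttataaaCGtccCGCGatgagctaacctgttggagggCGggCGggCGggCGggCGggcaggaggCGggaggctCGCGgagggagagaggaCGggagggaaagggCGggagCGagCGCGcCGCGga
Hoxb4 had a high RNA level for a Hox gene in femur and, in MC3T3-E1 cells, H3K27me3 at its start only in the list without VitC. Hoxa10 had 5hmC at the start used here, that of the promoter shown, only with VitC and H3K27me3 only without it. RefSeq holds another Hoxa10 promoter, with 20 CpG (chr6:52234940-52235189), whose start was not scored. Hoxa5 lay under H3K9me3 with and without VitC, Hoxb8 lay under H3K27me3 with and without VitC, and the start of Hoxd13, with no read in the VitC femurs, had no peak in any of the 10 lists.

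The femur libraries of the VitC experiment held 30997471 to 47160214 reads, apart from WT replicate 1 with 7585006, and those of the Tet experiment held 28597536 to 49788434, as computed from the steps between low values. The library labelled WT replicate 3 had a Gulo RPKM of 0, against 0.522 and 0.486 in the other WT libraries. The knockout libraries had 0.0126 to 0.180. WT replicate 3 thus differed from the other WT libraries but also lay below every knockout library, so its genotype stays unclear. Normalized counts of Tet1 were 374 to 435 in Ctrl, 532 to 773 in Tet1 cKO and 415 to 485 in Tet1/2 cKO, and those of Tet2 were 2236 to 2512 in Ctrl, 1834 to 2245 in Tet2 cKO and 1851 to 2970 in Tet1/2 cKO. These are counts of whole genes of which 1 exon is floxed, so they do not check the deletion. Markers of bone (Col1a1, Bglap, Sost and others) were present in all femur libraries, as were those of neutrophils, B-cell precursors and skeletal muscle.

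Levels of Hox genes in femur were low and differed strongly between genes. Levels are RPKM divided by a size factor per library (scaled RPKM), so they are per length and can be compared between genes. A gene was called expressed with a mean of at least 1 over the 9 VitC libraries, silent with a mean under 0.1 and low between. Of the 38 genes, 15 were expressed, 13 low and 10 silent, against 52.5% expressed and 32.3% silent among all 23358 entries. Cluster A had 5 expressed, 5 low and 0 silent genes, cluster B had 4, 4 and 2, cluster C had 5, 2 and 2, and cluster D had 1, 2 and 6. By position, 5 of the 11 anterior, 6 of the 11 central and 4 of the 16 posterior genes were expressed, and 3, 0 and 7 of them were silent.

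**Figure D1:**
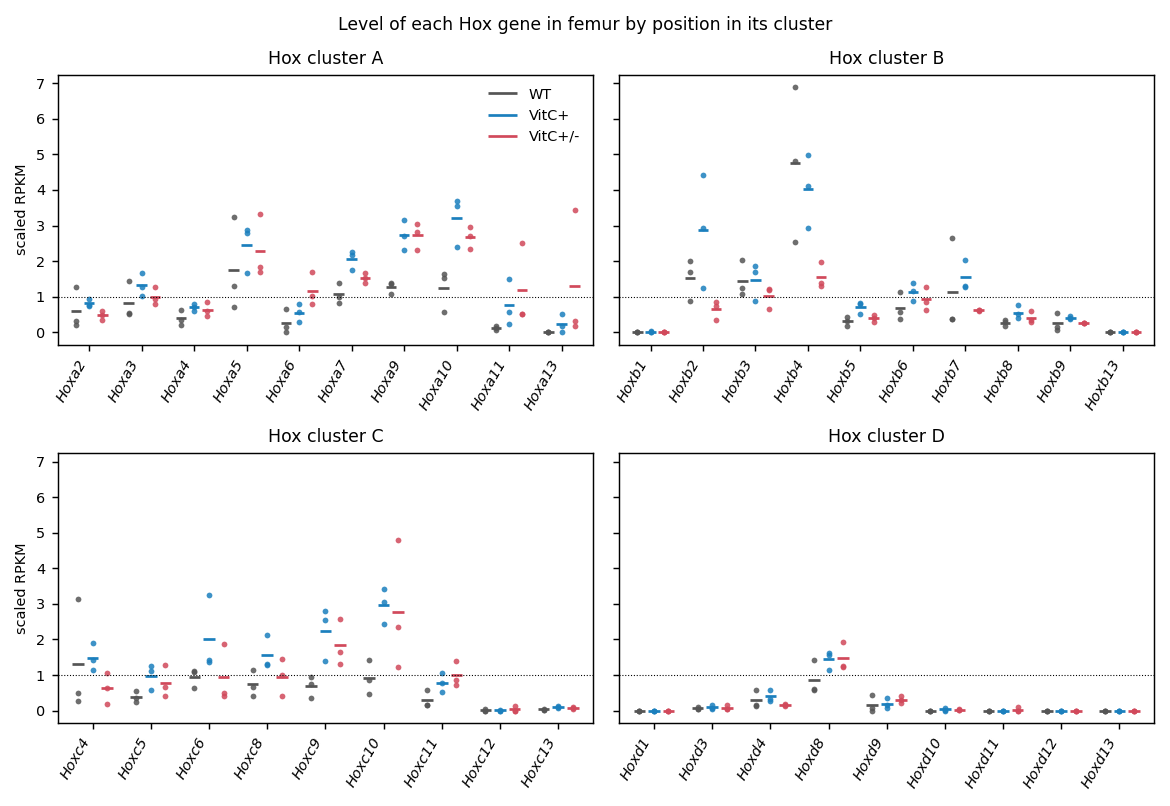
Scaled RPKM (y axis) of each Hox gene in order of its paralogue group (x axis) in the 4 clusters. Points are libraries, coloured by WT, VitC+ and VitC+/-, with 3 per group, short bars are group means and the dotted line is the level of 1 above which a gene was called expressed. Hoxb4 in cluster B reaches the highest level, the posterior ends of all clusters lie near 0 in most libraries, and Hoxd8 is the only expressed gene of cluster D.

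In cluster B the expressed genes were Hoxb2, Hoxb3, Hoxb4 and Hoxb7. Hoxb4, a regulator of blood stem cells, had the highest mean of all Hox genes, 3.44, with a scaled RPKM of 6.90, 2.55 and 4.81 in WT, 4.13, 4.97 and 2.94 in VitC+ and 1.39, 1.97 and 1.31 in VitC+/- femurs. Hoxb2, which acts in hindbrain patterning, had a scaled RPKM of 1.99, 0.882 and 1.69 in WT, 1.25, 2.93 and 4.43 in VitC+ and 0.735, 0.354 and 0.850 in VitC+/- femurs. Every VitC+/- library was below every WT and VitC+ library for both genes. For Hoxb3 the scaled RPKM was 2.03, 1.08 and 1.25 in WT, 0.879, 1.68 and 1.86 in VitC+ and 1.19, 1.21 and 0.647 in VitC+/- femurs, and the groups overlapped. For Hoxb7 it was 2.66, 0.384 and 0.368 in WT, 2.03, 1.31 and 1.27 in VitC+ and 0.636, 0.621 and 0.601 in VitC+/- femurs, with WT replicate 1, the shallow library, far above the other WT libraries. Hoxb5, Hoxb6, Hoxb8 and Hoxb9 were low with means of 0.306 to 0.916, and Hoxb1 and Hoxb13, at the ends of the cluster, were silent.

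In cluster A the expressed genes were Hoxa3, Hoxa5, Hoxa7, Hoxa9 and Hoxa10. Hoxa10, a posterior gene that patterns the proximal limb and is active in osteoblast precursors, had a scaled RPKM of 1.63, 0.563 and 1.54 in WT, 3.69, 2.40 and 3.55 in VitC+ and 2.34, 2.71 and 2.96 in VitC+/- femurs. Its neighbour Hoxa9, which supports myeloid progenitors, had 1.07, 1.38 and 1.36 in WT, 3.15, 2.32 and 2.70 in VitC+ and 2.30, 3.06 and 2.82 in VitC+/- femurs. For both genes all WT libraries were below all libraries of the knockout groups. Hoxa7 had a scaled RPKM of 1.39, 0.815 and 0.998 in WT, 2.17, 2.25 and 1.76 in VitC+ and 1.51, 1.40 and 1.68 in VitC+/- femurs, with WT lowest. Hoxa5, which patterns the cervical and thoracic skeleton, had 3.24, 0.711 and 1.31 in WT, 2.79, 1.67 and 2.86 in VitC+ and 1.84, 3.31 and 1.70 in VitC+/- femurs. Hoxa3 had 1.44, 0.555 and 0.520 in WT, 1.29, 1.03 and 1.66 in VitC+ and 0.799, 1.26 and 0.931 in VitC+/- femurs. For Hoxa5 and Hoxa3 the groups overlapped, and the annotated range of Hoxa3 spans Hoxa4, Hoxa5 and Hoxa6 on the same strand, so reads in exons they share could not be told apart. Hoxa2, Hoxa4 and Hoxa6 were low with means of 0.580 to 0.664.

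The posterior end of cluster A, Hoxa11 and Hoxa13, which pattern the forearm, lower leg, hand and foot, was decided by single libraries. Hoxa13 had a scaled RPKM of 0, 0 and 0 in WT, 0.528, 0 and 0.169 in VitC+ and 0.170, 3.44 and 0.306 in VitC+/- femurs, so VitC+/- replicate 2 alone held most of its signal, with 147 reads. Hoxa11 had 0.181, 0.0686 and 0.116 in WT, 1.49, 0.236 and 0.576 in VitC+ and 0.509, 2.51 and 0.528 in VitC+/- femurs, with the same library highest. Hoxa11as, an antisense RNA that overlaps Hoxa11, reached 2.01 in VitC+ replicate 1 and 1.95 in VitC+/- replicate 2, and reads from both strands cannot be told apart here because strand-specific counting is not given in the sources used here.

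In cluster C the expressed genes were Hoxc4, Hoxc6, Hoxc8, Hoxc9 and Hoxc10. Hoxc10, which is used in the hindlimb and lumbar region, had a scaled RPKM of 0.848, 0.469 and 1.41 in WT, 3.06, 2.43 and 3.41 in VitC+ and 2.34, 1.22 and 4.78 in VitC+/- femurs. Hoxc9 had 0.944, 0.343 and 0.755 in WT, 2.80, 1.38 and 2.55 in VitC+ and 1.64, 1.31 and 2.58 in VitC+/- femurs. For both genes every WT library was below every VitC+ library but Hoxc10 overlapped between WT and VitC+/-. Hoxc8 had 1.14, 0.411 and 0.657 in WT, 1.30, 1.29 and 2.13 in VitC+ and 0.987, 0.422 and 1.45 in VitC+/- femurs. Hoxc6 had 1.10, 0.628 and 1.09 in WT, 1.38, 1.41 and 3.24 in VitC+ and 0.507, 0.419 and 1.87 in VitC+/- femurs. Hoxc4 had 3.14, 0.259 and 0.497 in WT, 1.42, 1.15 and 1.89 in VitC+ and 0.632, 0.184 and 1.05 in VitC+/- femurs. These 3 central and anterior genes varied up to several fold within a group. Hoxc5 and Hoxc11 were low, and Hoxc12 and Hoxc13 silent. Of the RNA genes inside the clusters, Hotair, a noncoding RNA of cluster C, had at most 0.334, and Mira, one of cluster A, had 2.74 to 10.4, above every Hox gene in most libraries. The microRNA genes Mir10a, Mir10b, Mir196b and Mir615 reached 1.89, 3.34, 1.78 and 4.41 in single libraries and were at 0 in others.

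Cluster D was nearly silent. Hoxd8, a central gene, was the expressed member with a scaled RPKM of 1.42, 0.576 and 0.620 in WT, 1.62, 1.56 and 1.13 in VitC+ and 1.23, 1.26 and 1.93 in VitC+/- femurs. Hoxd9 on its one side was low with a mean of 0.220. On its other side lies Hoxd3, which was silent and whose annotated range spans Hoxd4 on the same strand, low with a mean of 0.284, so reads in exons these genes share could not be told apart. Hoxd1, Hoxd3, Hoxd10, Hoxd11, Hoxd12 and Hoxd13 were silent. Hoxb13, Hoxd1, Hoxd12 and Hoxd13 had no read in any of the 9 libraries, and 3 reads, the limit that a count of 0 allows, would give an RPKM of 0.0247 to 0.289 for these genes by gene and library. In the Tet femurs Hoxb13, Hoxc12, Hoxd1 and Hoxd12 were listed at 0 in all 12 libraries, where 3 reads would be 2.28 to 4.09 normalized counts. The order of levels in the Ctrl femurs was led by Hoxc10, with 220.0 normalized counts per kb of exon, Hoxa10 with 136, Hoxb4 with 127, Hoxc6 with 96.4 and Hoxb2 with 90.5. All 5 were expressed in the VitC femurs too. Intervals and limits of this kind cover counting error only.

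To ask what VitC withdrawal changes, VitC+/- was compared with VitC+. Of the 16 Hox genes that reached an RPKM of 1 in 3 or more libraries, 2 fell and 0 rose. Hoxb2 fell by 1.46 ± 0.39 (SE) on the log2 scale (adjusted p = 0.0399) and Hoxb4 fell by 1.12 ± 0.32 (adjusted p = 0.0479), with n = 3 per group (limma, Benjamini-Hochberg over all genes). Among all 12586 genes tested, 13.4% were called, 7.52% lower and 5.93% higher, so the share of called Hox genes lies near the background. Log2 values were taken after adding 0.5, which understates the change of genes as low as these. The median over the 16 genes was -0.31 against 0.02 over all genes, and 14 were negative and 2 positive. With the filter at 0.1 RPKM, 21 of 28 Hox genes were negative and 7 positive (median -0.23). With no filter, 25 of 34 were negative and 9 positive (median -0.22). Groups did not overlap with lower values in VitC+/- for 5 genes (Hoxa7, Hoxb2, Hoxb4, Hoxb7 and Hoxc4), a pattern found for 19.1% of all genes, and with higher values for 0 genes (21.4% of all genes).

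Both calls lie close to the threshold. Hoxb4 lost its call when any of the 6 libraries was left out, with adjusted p from 0.0600 to 0.151, and Hoxb2 kept it only without VitC+ replicate 1. Without further scaling or without a filter on low values 0 Hox genes were called. Posterior genes had values near 0: the log2 difference was 0.00 ± 0.18 for Hoxa9 (95% interval -0.37 to 0.37), -0.21 ± 0.28 for Hoxa10 and -0.22 ± 0.40 for Hoxc10, and 0.02 ± 0.28 for the central gene Hoxd8. Markers of other cells moved in the same comparison. Of 8 B-cell precursor markers 7 fell (summed level 13.3 to 26.1 in VitC+/- and 63.4 to 125 in VitC+), of 12 osteoblast and osteocyte markers 5 fell (705 to 4486 and 5575 to 10900), of 7 neutrophil markers 1 fell (6754 to 22870 and 28621 to 45258), of 5 tested chondrocyte markers 1 fell (32.4 to 47.0 and 132 to 429), of 6 stromal markers 1 fell (199.6 to 331 and 305 to 494), and the stem and progenitor markers summed to 53.1 to 95.1 and 75.9 to 106. Adipocyte and erythroid markers had positive median log2 differences, 1.34 and 0.54, with 0 past the threshold. The adipocyte markers summed to 257 to 1736 in VitC+/- and 167 to 381 in VitC+, the erythroid markers to 172 to 220 and 110 to 191. The part of all these markers in the Hox values was not tested, and in bulk tissue fewer cells of a type and less RNA per cell cannot be told apart.

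**Figure D2:**
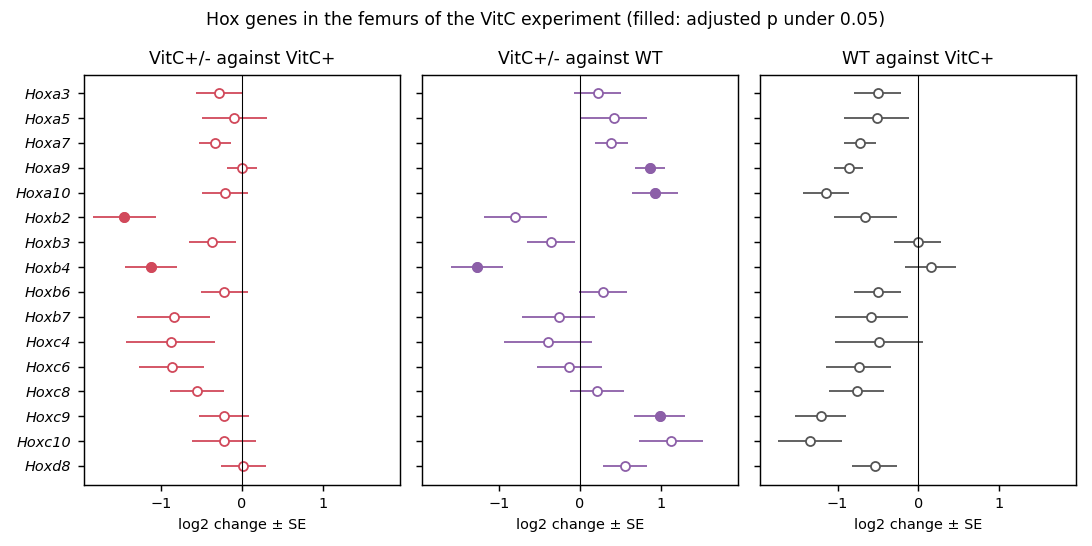
Log2 difference with its SE (x axis) of the 16 tested Hox genes (y axis, by cluster and paralogue group) in VitC+/- against VitC+, VitC+/- against WT and WT against VitC+. Filled points passed an adjusted p of 0.05, and these are Hoxb2 and Hoxb4 in the left panel, Hoxa9, Hoxa10, Hoxb4 and Hoxc9 in the middle panel and none in the right panel.

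Compared with WT, VitC+/- femurs differed in both directions. Hoxb4 fell by 1.28 ± 0.32 (SE) on the log2 scale (adjusted p = 0.0158). The posterior genes Hoxa9, Hoxa10 and Hoxc9 rose, by 0.86 ± 0.18 (adjusted p = 0.00827), 0.92 ± 0.28 (adjusted p = 0.0356) and 0.99 ± 0.31 (adjusted p = 0.0398), with n = 3 per group (limma). Hoxc10 had the largest positive difference of the 16, 1.12 ± 0.40, and an adjusted p of 0.0560. These are 1 lower and 3 higher of 16, where 31.3% of all genes were called, 15.9% lower and 15.3% higher. The median over the 16 was 0.25. Groups did not overlap for Hoxb2 and Hoxb4 with lower values (21.3% of all genes) and for Hoxa7, Hoxa9, Hoxa10 and Hoxc9 with higher values (21.4%). Hoxa9 kept its call in all 12 alternatives tried, Hoxb4 in 10, Hoxc9 in 6 (adjusted p up to 0.125 by limma) and Hoxa10 in 5 (up to 0.0942). Hoxb4 lost it without WT replicate 3 (the library with no Gulo signal) and without VitC+/- replicate 1, and the number of calls went from 1 to 5 as libraries were left out. All 7 neutrophil markers fell in this comparison (summed level 6754 to 22870 in VitC+/- and 50834 to 71837 in WT), 7 of 8 B-cell precursor markers fell (41.8 to 139 in WT), 2 of 6 stromal markers rose (178 to 269 in WT), and 3 of 4 tested adipocyte markers rose (257 to 1736 in VitC+/- and 99.0 to 178 in WT). The stem and progenitor markers summed to 105 to 142 in WT, above all VitC+/- libraries. Their part was not tested.

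Between WT and VitC+, which differ in genotype and in the VitC of the water, limma called 0 of 12586 genes (0.0%) and thus 0 Hox genes, with 2769 genes (22.0%) and 6 of 16 Hox genes at an unadjusted p under 0.05. These 6 were Hoxa7, Hoxa9, Hoxa10, Hoxc8, Hoxc9 and Hoxc10, all lower in WT. The lowest adjusted p was that of Hoxa9, 0.0804, at a log2 difference of -0.86 ± 0.18. Hoxc10 had -1.34 ± 0.40, Hoxc9 -1.21 ± 0.31 and Hoxa10 -1.14 ± 0.28. Of the 16 genes 15 were negative, with a median of -0.62 against 0.04 over all genes, and 7 did not overlap (14.5% of all genes). When the shallow WT replicate 1 was left out, Hoxa7, Hoxa10 and Hoxb7 passed the threshold and so did 604 of all genes. In the WT libraries the stromal markers summed to 178 to 269 and the osteoblast and osteocyte markers to 1058 to 3981, both below the VitC+ libraries. The chondrocyte markers were lower as well (36.5 to 96.5 in WT and 132 to 429 in VitC+) and the neutrophil markers higher (50834 to 71837 and 28621 to 45258). Their part was not tested. This comparison shares its WT and VitC+ libraries with those before it, so the 3 sets of values are not independent.

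Genes of the Polycomb pathway were measured in the same femurs. In VitC+/- against VitC+, where 7.52% of all genes were lower and 5.93% higher, 1 of 11 PRC2 genes passed, a share near this background. It was Ezh2, the H3K27 methyltransferase, and fell by 0.86 ± 0.23 on the log2 scale (limma, adjusted p = 0.0389). None of 19 PRC1 genes passed. Of the 7 trithorax and H3K27 demethylase genes tested, Kdm6a, a demethylase of H3K27, rose by 0.72 ± 0.20 (adjusted p = 0.0447). Among 8 tested TALE homeodomain genes, the DNA-binding partners of Hox proteins, Pbx3 rose by 0.78 ± 0.16 (adjusted p = 0.0164) and Meis1 fell by 0.75 ± 0.21 (adjusted p = 0.0461). None of the 3 tested limb position genes passed.

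Compared with WT, 15.9% of all genes were lower and 15.3% higher, and the shares of the PRC2 and PRC1 genes lay near these. Of 11 PRC2 genes 2 fell, Ezh2 by 1.40 ± 0.23 (limma, adjusted p = 0.00273) and the histone-binding subunit Rbbp4 by 0.55 ± 0.14. Of 19 PRC1 genes 4 rose, led by Pcgf2 with 1.71 ± 0.30 (adjusted p = 0.00385), followed by Phc1, Bmi1 and Phc2 with 0.61 each. The trithorax complex subunits Dpy30 and Ash2l fell by 0.81 ± 0.14 and 0.48 ± 0.14. Pbx3 rose by 1.20 ± 0.16, as did Pitx1, the hindlimb identity factor, by 1.66 ± 0.38 (adjusted p = 0.0104). No gene of these 5 lists passed between WT and VitC+ or in the Tet comparisons.

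In the Tet femurs 27 Hox genes had at least 10 normalized counts in 3 libraries, and none was called in any comparison. In Tet1 cKO and in Tet2 cKO against Ctrl, limma called 2 of 16780 genes each (0.0119%), 1 lower and 1 higher (0.00596% each), and 0 Hox genes had an unadjusted p under 0.05, against 2.28% and 2.19% of all genes. The medians of the 27 log2 differences were 0.26 and 0.12, and leaving out 1 library moved them between -0.01 and 0.56 and between -0.24 and 0.46. The highest gene in Ctrl, Hoxc10, had normalized counts of 184, 559 and 519.7 in Ctrl femurs, 1362, 151 and 446 in Tet1 cKO femurs, 1465, 331 and 260.1 in Tet2 cKO femurs and 94.6, 151 and 355 in Tet1/2 cKO femurs. Tet1 cKO replicate 1 and Tet2 cKO replicate 1 were thus far above their group partners. Groups did not overlap for Hoxc11 and Hoxd4, higher in Tet1 cKO (4.28% of all genes), and for Hoxc11, higher in Tet2 cKO (2.54%), and with lower values for 0 Hox genes (3.54% and 3.43% of all genes).

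In Tet1/2 cKO against Ctrl all 27 Hox genes had negative log2 differences, but none passed. The median was -1.02 against -0.01 over all genes. limma and edgeR called 0 genes of the whole table (0.0%) and DESeq2 13, with 847 genes (5.05%) and 3 Hox genes at an unadjusted p under 0.05 by limma. Hoxb2 had normalized counts of 79.3, 206 and 158 in Ctrl femurs and 45.0, 72.3 and 48.9 in Tet1/2 cKO femurs, a log2 difference of -1.32 ± 0.45 (SE, adjusted p = 0.723 by limma). Hoxc9 had 75.1, 225 and 151 in Ctrl femurs and 26.7, 42.6 and 70.0 in Tet1/2 cKO femurs, a difference of -1.64 ± 0.62. Hoxb5 had 21.1, 32.5 and 45.6 in Ctrl femurs and 0, 15.2 and 13.4 in Tet1/2 cKO femurs, a difference of -2.40 ± 1.07. In all 3 genes every Tet1/2 cKO library was below every Ctrl library, and so it was for Hoxa3, Hoxb9 and Hoxc8, 6 of 27 where 10.0% of all genes do this. No Hox gene was higher in every Tet1/2 cKO library (7.37% of all genes).

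Hoxb4 went another way. Its normalized counts were 216, 455 and 309 in Ctrl femurs and 416, 221 and 323 in Tet1/2 cKO femurs, with a log2 difference of -0.01 ± 0.35 and a 95% interval of -0.71 to 0.69. Hoxa5 had -0.12 ± 0.61 and Hoxa9 -0.30 ± 0.34. The median over the 27 genes was -0.50 without Tet1/2 cKO replicate 1 and -1.34 without Ctrl replicate 1, and without Ctrl replicate 2, Tet1/2 cKO replicate 1 or Tet1/2 cKO replicate 2 the number of negative genes was 25. With the filter at 1 normalized count, 30 Hox genes were negative and 2 positive. By edgeR 27 were negative and 1 positive, and by DESeq2 28 and 1. Medians of marker lists in this comparison were -3.54 for 7 chondrocyte, -3.87 for 6 skeletal muscle, -1.17 for 12 osteoblast and osteocyte, -1.23 for 5 adipocyte and -0.62 for 6 stromal markers, and 0.75 for 7 neutrophil markers, with 0 markers past the threshold. The stromal markers summed to 104384 to 142856 in Ctrl and 80536 to 101107 in Tet1/2 cKO, the osteoblast and osteocyte markers to 1010957 to 1304994 and 316706 to 700218, and the adipocyte markers to 8964 to 9623 and 3442 to 7319. Their part was not tested.

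**Figure D3:**
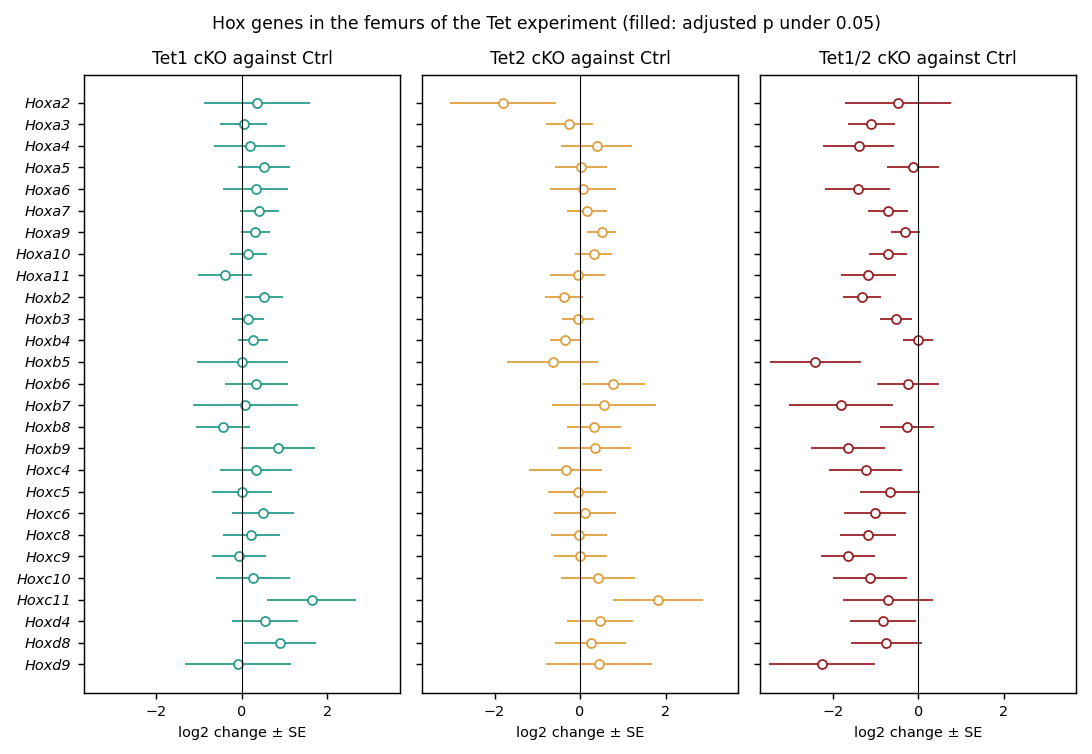
Log2 difference with its SE (x axis) of the 27 tested Hox genes (y axis, by cluster and paralogue group) in Tet1 cKO, Tet2 cKO and Tet1/2 cKO against Ctrl. All points are open, as no gene passed an adjusted p of 0.05, and in the right panel all 27 points lie below 0, with Hoxb4 at -0.01.

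Chromatin marks were read from 10 peak lists, 1 per group with replicates pooled, so no difference between lists could be tested. Coverage was counted in 642 windows of 1 kb over the clusters and 20 kb on either side (mm10: A, chr6:52162511-52260880; B, chr11:96194361-96368253; C, chr15:102921131-103036852; D, chr2:74668310-74765142, without the flanks). A window counted as covered when peaks took at least 50% of it. H3K27me3 covered 35.4% of the Hox windows with VitC and 50.3% without, against 5.53% and 9.20% of the windows of the genome. The higher coverage without VitC was thus present genome-wide. Peaks were weak. Their median fold enrichment over the clusters was 2.37 to 2.97, against 2.77 with VitC and 2.44 without in the whole lists. With peaks of a -log10 q of at least 5 alone, 0 windows with VitC and 7.63% without it stayed covered.

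H3K27me3 was uneven between clusters. By length it covered 60.6% of cluster B with its flanks with VitC and 78.0% without, and 50.7% and 75.0% of the length of cluster D. Clusters A and C had 9.28% and 9.19% with VitC, and 16.4% and 21.4% without. The longest peak lay over Hoxb13 and a part of the stretch without Hox genes next to it, which holds Gm53 and Mir196a-1, 48334 bp with VitC and 60650 bp without. Stretches within the clusters were set after the tracks had been seen. Hoxa2 to Hoxa7 had no H3K27me3 peak in either list, while Hoxa9 to Hoxa13 was covered to 12.5% and 37.6% with and without VitC. Hoxb4 to Hoxb2, the anterior part of cluster B, was covered to 5.96% and 27.8%, next to 50.4% and 84.1% at Hoxb9 to Hoxb5. Its genes Hoxb2, Hoxb3 and Hoxb4 were expressed in femur, but RNA of MC3T3-E1, the source of these peaks, is not given here. Hoxd8 to Hoxd1 was covered to 57.6% and 81.3%, and Hoxd13 to Hoxd9 to 30.3% and 55.3%.

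**Figure D4:**
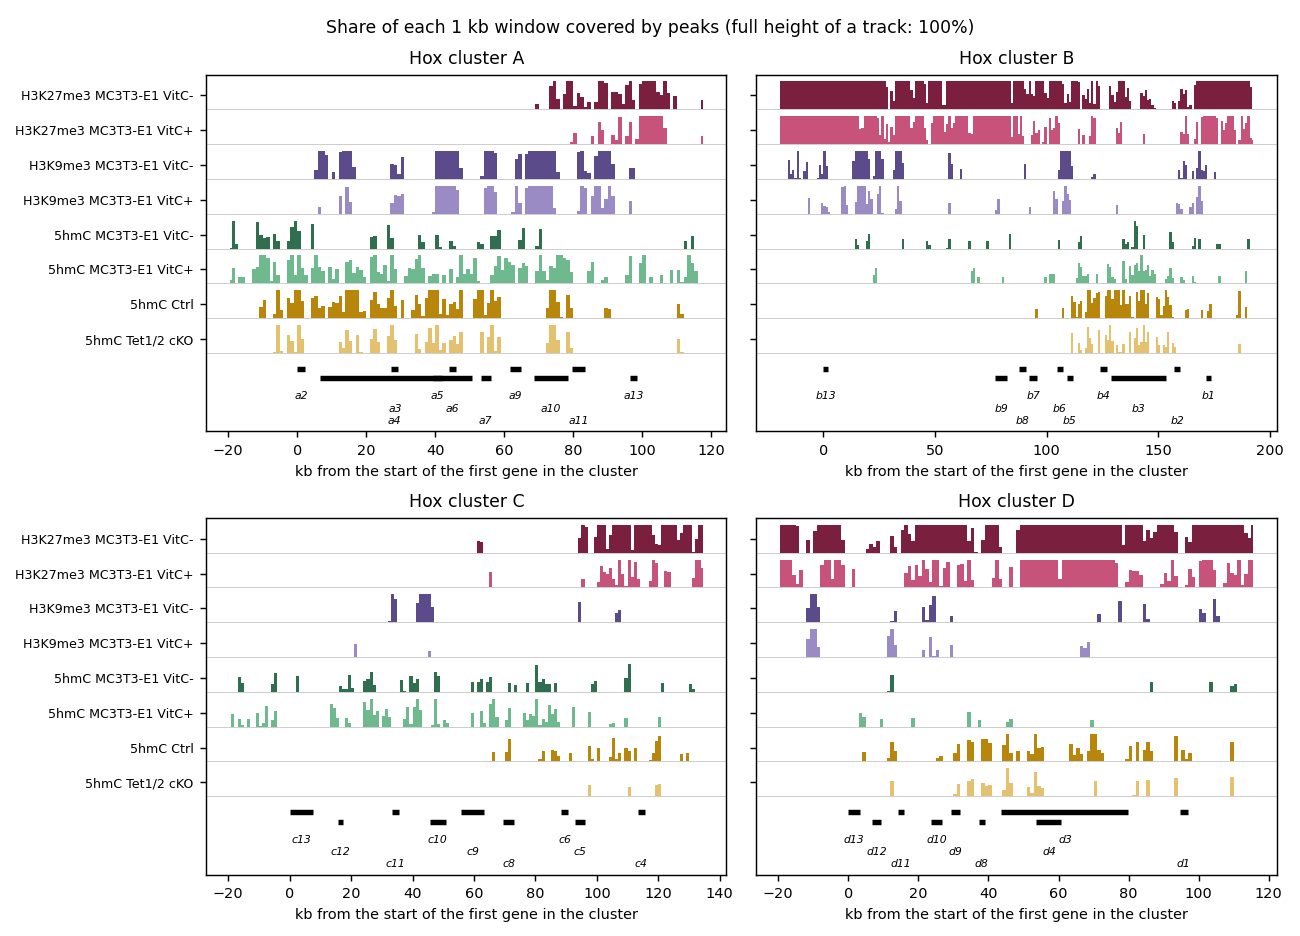
Share of each 1 kb window covered by peaks (height of a track, full height 100%) along the 4 clusters, in kb from the start of the first gene in the cluster (x axis), for 8 peak lists. Black bars mark the Hox genes. H3K27me3 fills most of clusters B and D. H3K9me3 is densest in cluster A, more over Hoxa9 to Hoxa13 than over Hoxa2 to Hoxa7. 5hmC of MC3T3-E1 with VitC and of the Ctrl and Tet1/2 cKO femurs is densest in cluster A and around Hoxb3. Without VitC, 5hmC of MC3T3-E1 covers clusters A and C to a like extent, 11.6% and 10.8% of their length.

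At start sites (1 kb on either side) 11 of 38 Hox genes had an H3K27me3 peak with VitC and 21 without, where 16.1% and 20.9% of 21911 genes had one. All 11 were among the 21. Within 5 kb of the start this difference was gone, with 25 genes in either list (31.5% and 36.0% of all genes). The 10 with a peak only without VitC were Hoxa10, Hoxa11, Hoxb2, Hoxb3, Hoxb4, Hoxb5, Hoxb7, Hoxd1, Hoxd11 and Hoxd12. In the list without VitC all 10 genes of cluster B, 7 of 9 in cluster D, 3 of 10 in cluster A and 1 of 9 in cluster C, Hoxc4, had a peak. Peaks at Hoxb2 and Hoxb4 were among the weakest, with a fold enrichment of 2.27 and 2.29 and a -log10 q of 1.31 and 1.39, and covered 26.4% and 45.9% of the 2 kb. At Hoxb13 the fold was 3.80 and the -log10 q 6.08, the 1 Hox start site left at a -log10 q of at least 5. With VitC 0 Hox genes were left at that threshold, as were 0 of all 21911 genes.

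Set beside the femur levels, which come from other cells than the line, H3K27me3 with VitC lay at the start of 1 of 15 expressed genes (Hoxc4), 6 of 13 low and 4 of 10 silent genes. Without VitC it lay at 6, 8 and 7 of them. Silence in femur and the mark did not go together at every gene: Hoxc12, Hoxc13 and Hoxd13, silent in femur, had no H3K27me3 peak at their start in either list, and Hoxc6, Hoxc8 and Hoxc9, expressed in femur, had no peak of any of the 3 marks at their start in MC3T3-E1.

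**Figure D5:**
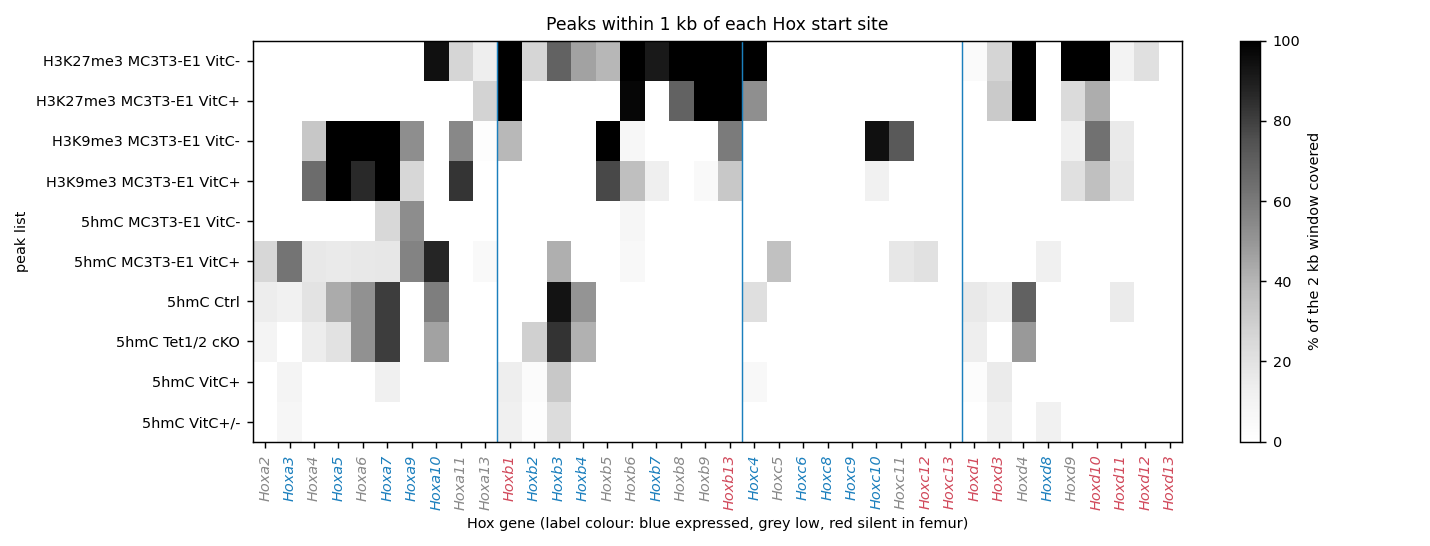
Share of the 2 kb around the start site of each Hox gene (x axis, by cluster) covered by peaks (grey scale, 0 to 100%) in the 10 peak lists (y axis). Gene names are blue for expressed, grey for low and red for silent in femur. H3K27me3 without VitC reaches all 10 genes of cluster B, H3K9me3 in cluster A lies over Hoxa4 to Hoxa9 and Hoxa11, and 5hmC in femur lies mostly at anterior genes.

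H3K9me3 lay at few start sites genome-wide and at many Hox genes. It was found at 15 of 38 Hox start sites with VitC and 16 without, against 2.83% and 3.33% of all genes, and 13 genes had it in both lists. It covered 9.19% of the Hox windows with VitC and 14.0% without, against 1.61% and 2.53% of the genome. By length, cluster A had 23.3% and 29.4%, B 10.5% and 15.6%, C 0.442% and 5.54%, and D 5.89% and 7.05%. Within cluster A, Hoxa9 to Hoxa13 was covered to 46.2% with VitC and 52.7% without, and Hoxa2 to Hoxa7 to 24.2% and 34.5%. A single peak of 6910 bp with VitC and 7363 bp without covered the starts of Hoxa5 and Hoxa6, with a fold enrichment of 4.56 and 3.93 and a -log10 q of 6.63 and 4.87. Hoxa7 was covered to 100% in both lists too. Only Hoxa5 and Hoxa6 with VitC stayed at a -log10 q of at least 5. Both H3K27me3 and H3K9me3 peaks lay within 1 kb of the start at 5 genes with VitC and at 9 without, among them Hoxb13, Hoxb6 and Hoxd10 in both lists.

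5hmC in MC3T3-E1 had the opposite difference between lists. It covered 14.0% of the Hox windows with VitC and 4.67% without, against 6.97% and 3.59% of the genome. In cluster A 38.8% of the length was covered with VitC and 11.6% without, in B 8.32% and 4.58%, in C 17.2% and 10.8%, and in D 2.11% and 1.34%. At start sites 15 Hox genes had a peak with VitC and 3 without (Hoxa7, Hoxa9 and Hoxb6), where 41.7% and 21.2% of all genes had one. The 12 genes with a peak only with VitC included Hoxa10, with a fold enrichment of 8.63 and 87.2% of the 2 kb covered, Hoxa3 with 13.8 and 61.7%, and Hoxa2 with 15.4 and 25.5%. At the start of Hoxa10 used here an H3K27me3 peak that covered 94.2% of the 2 kb was present only without VitC. Hoxb3 was the other gene with H3K27me3 only without and 5hmC only with VitC. The samples of these marks may differ in their time in culture.

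In femur 5hmC start site peaks lay mostly at anterior genes. By gene length 5hmC covered 8.39% of anterior, 7.82% of central and 3.57% of posterior genes in VitC+ femurs. In VitC+/- femurs it covered 4.68%, 6.31% and 2.30%, and in Ctrl femurs 41.1%, 24.5% and 6.97%. Of the genome it covered 7.12% in VitC+, 7.11% in VitC+/- and 11.0% in Ctrl femurs. The annotated range of Hoxa3 holds the central genes Hoxa5 and Hoxa6, so their bases counted as anterior and as central. In Ctrl femurs 9 of 11 anterior, 3 of 11 central and 2 of 16 posterior start sites had a peak, 14 of 38 in all where 43.6% of all genes had one. Hoxb4 to Hoxb2 was covered to 53.1% and Hoxa2 to Hoxa7, which includes the central genes Hoxa5, Hoxa6 and Hoxa7, to 51.5%. The stretch between Hoxb13 and Hoxb9 had no peak. The start of Hoxa3 used here lies between Hoxa6 and Hoxa7, and that of Hoxd3 between Hoxd8 and Hoxd4. The strongest start site peak by fold was at Hoxa4, with 10.0, followed by Hoxb4 with 7.75 and Hoxa7 with 7.45. Anterior genes of cluster D that were silent or low in femur had it as well: Hoxd1 with a fold of 4.09, Hoxd3 with 5.69 and Hoxd4 with 4.57.

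In Tet1/2 cKO femurs 5hmC covered 7.17% of the Hox windows, against 14.8% in Ctrl, where the genome had 4.29% and 10.3%. By length it covered 30.0% of cluster A in Ctrl and 16.8% in Tet1/2 cKO, 14.4% and 7.15% of B, 6.24% and 0.994% of C, and 15.7% and 7.46% of D. Start sites with a peak were 11, of which 10 were also among the 14 of Ctrl. Hoxa3, Hoxc4, Hoxd3 and Hoxd11 had one in Ctrl alone and Hoxb2 in Tet1/2 cKO alone. At Hoxb4 the fold was 8.44 and 41.3% of the 2 kb stayed covered, against 50.8% in Ctrl.

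In VitC+ and VitC+/- femurs 5hmC covered 2.65% and 1.40% of the Hox windows, against 4.21% and 3.69% of the genome. By length it covered 10.6% and 6.66% of cluster A, 9.83% and 6.23% of C, 3.06% and 2.53% of B, and 2.24% and 2.08% of D, against 7.12% and 7.11% of the genome, so clusters A and C lay above the genome in VitC+. At start sites 8 genes had a peak in VitC+ and 6 in VitC+/- (30.6% and 27.5% of all genes), 5 of them in both: Hoxa3, Hoxb1, Hoxb2, Hoxb3 and Hoxd3. All 5 are anterior by paralogue group, but the Hoxa3 start used lies between Hoxa6 and Hoxa7 and the Hoxd3 start between Hoxd8 and Hoxd4. Of the 16 posterior genes 0 had a peak in either list. At Hoxb2, which fell in VitC+/-, the peak had a fold of 6.92 in VitC+ and 6.38 in VitC+/- and reached 2.90% and 1.65% of the 2 kb. Hoxb4 had no peak at its start in either list and 1 within the gene in each, with a fold of 3.39 in VitC+ and 3.80 in VitC+/-.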

How the data were processed

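For the VitC femurs, RPKM values of each library, from reads the authors mapped to mm10 with STAR, were used as deposited. For the Tet experiment the authors deposited gene counts divided by DESeq2 size factors, a normalized count signal. Peaks were called by the authors with MACS2 on pooled samples after mapping with BWA, and the deposited lists hold the fold enrichment (a ratio over local background) and -log10 q of each peak, besides a -log10 p not used here, and a pileup signal in some lists. The lowest -log10 q of the histone lists is 1.01, so they hold peaks above an FDR of 0.05. Versions in the submitters' processing notes are STAR 2.6.0b-1, BWA 0.7.15.1, MACS2 2.1.1.20160309.6, featureCounts 1.6.3 and DESeq2 2.11.40.2.

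RPKM values were scaled by median of ratios (0.757 to 1.10), and log2 values taken with a pseudocount of 0.5 for genes that reached an RPKM of 1 in 3 or more libraries. Normalized counts were taken as log2 with a pseudocount of 1, for genes with at least 10 in 3 libraries. The limma test, with a trended eBayes step, took in all 9 or 12 libraries. Its p-values were adjusted by Benjamini-Hochberg over all genes, with 0.05 as the threshold. Replicates are separate samples by the labels, which do not say that each is another animal, so p-values measure the spread between these samples. Recovered reads of 11 Tet libraries went into edgeR and DESeq2, without Tet1 cKO replicate 3, whose divisor is close to 1. The fits were tested on simulated data.

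Members, gene lists and marker lists were chosen with earlier results of these data known. Values in every library are given for expressed genes and for those past the threshold, others by ranges, and examples outside this rule were named after their values had been seen. Of 10 trithorax and demethylase genes 7 were found by symbol in the VitC tables. The VitC femur 5hmC lists hold no peak on the sex chromosomes. Alternatives changed scaling, pseudocount, filter, libraries in the fit, replicate block, test, peak threshold, overlap, flank and window, and dropped single libraries. Tools were limma 3.58.1, DESeq2 1.42.0 and edgeR 4.0.16 under R 4.3.3, and, under Python 3.11.15, pandas 2.3.3 with numpy 2.4.6, matplotlib 3.10.9 for plots and scipy 1.17.1.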

Additional observations from a re-analysis of the deposited data

How the results depend on the processing

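No called difference of a Hox gene changed its direction in the alternatives tried. In VitC+/- against VitC+ the 2 calls became 0 with no further scaling, which moves the median of all genes to 0.13, 1 with the filter at 0.1, 0 with no filter and 1 (Hoxb2) with the replicate block. Leaving out 1 library gave 0 to 1 calls, with fewer samples in each such fit, and every one of the 6 libraries changed the count. In VitC+/- against WT only the 2 groups in the fit gave 2 calls in place of 4, and leaving out 1 library gave 1 to 5, with 1 call without WT replicate 3 or VitC+/- replicate 1 and 2 without WT replicate 2 or VitC+/- replicate 3. In WT against VitC+ the replicate block gave 4 lower Hox genes and 774 calls among all genes in place of 0, and leaving out 1 library gave 0 to 3, with the 3 found without WT replicate 1. In the 3 Tet comparisons 0 Hox genes were called in every alternative, edgeR and DESeq2 included, and leaving out 1 library gave 0. The cause of these differences was not tested. Whether replicate numbers pair the libraries is not known. Deviations of same-numbered libraries correlated between -0.19 and 0.46 in the VitC experiment and between -0.57 and 0.53 in the Tet experiment. Those of libraries with different numbers correlated between -0.37 and 0.42 and between -0.62 and 0.55. Not every library correlated best with its own number, and 3 libraries per group are too few to decide. The replicate block changed no other Hox count by over 1.5 times.

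Counting every window with at least 1 bp of peak raised coverage to 46.4% (H3K27me3 with VitC), 59.8% (H3K27me3 without), 15.7% (H3K9me3 with), 21.3% (H3K9me3 without), 32.9% and 18.1% (5hmC of MC3T3-E1 with and without), 20.1% (VitC+), 15.4% (VitC+/-), 30.2% (Ctrl) and 16.5% (Tet1/2 cKO). With a -log10 q of at least 5 it was 0%, 7.63%, 1.40% and 0% for the 4 histone lists in this order and 5.30% for Tet1/2 cKO, and without flanks 17.8% for Ctrl. H3K27me3 start sites with VitC were 25 within 5 kb, 7 with 50% of the window covered and 0 with a -log10 q of at least 5, and without VitC 25, 12 and 1. The shares of all 21911 genes were 31.5%, 7.59% and 0.0% with VitC and 36.0%, 13.3% and 1.4% without. Alternatives for the other lists and for the medians were added after seeing the data. Within 5 kb, with 50% covered and with the higher q, H3K9me3 start sites were 24, 6 and 2 with VitC and 24, 10 and 0 without. Of all genes, 9.1%, 0.963% and 0.288% had a peak with VitC and 13.1%, 1.06% and 0.0593% without. Those of 5hmC in MC3T3-E1 were 31, 3 and 13 with VitC and 22, 1 and 2 without, in femur 24, 0 and 7 for VitC+ and 26, 0 and 4 for VitC+/-, which turns their order at 5 kb, and 28, 6 and 14 for Ctrl and 20, 3 and 8 for Tet1/2 cKO.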
